A study of Mus musculus with 3 samples.

Results

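The genes described here are 3 beta-defensins and 3 cystatins of the mouse testis: Defb19, Defb36, Defb33, Cst9, Cst12 and Cstl1. They were taken by symbol, as 6 of the 22843 genes in the deposited single-cell RNA-seq tables, because earlier work on these cells had placed some with Sertoli RNA and others with spermatid stages. That placing is therefore described below and not tested. All 6 symbols were found and all 6 had UMIs in each of the 3 libraries.

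The study knocked down Gm4665, a long non-coding RNA gene, in the testes of living ICR mice. At postnatal day 21 the testes were microinjected with AAV9, which delivered a hairpin together with RFP (a red fluorescent reporter), the control hairpin (shCtrl) into one testis and a Gm4665 hairpin into the opposite one. Somatic cells were removed, RFP+ germ cells were sorted by flow cytometry, and 10x 3' V2 libraries were made. The 3 groups are shCtrl, Gm4665-shRNA1 (hairpin 1) and Gm4665-shRNA2 (hairpin 2), each of 3 mice per the design text but deposited as 1 library, so no value below has a replicate and no test between groups was possible. Both hairpins were compared with the same control library, which ties their differences together. Cells of all 3 groups, controls included, were thus sorted for the AAV9 reporter, and any somatic cells below are cells that passed this sort.

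Beta-defensins are small secreted cationic peptides with antimicrobial activity, and many of them are made in the male tract, where several coat sperm. Type 2 cystatins are secreted proteins of a family that inhibits papain-like cysteine proteases such as the cathepsins. Cst9 (testatin) and Cst12 belong to the reproductive subgroup around Cst8 (CRES), which lacks part of the sequence conserved in inhibitory cystatins. Sertoli cells are the somatic nurse cells of the seminiferous tubule, and spermatids are the haploid germ cells that replace histones by transition proteins and then protamines as they elongate and condense.

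In GENCODE vM21 (mm10), 5 of the 6 genes lay on chromosome 2. Defb19 (ENSMUSG00000050645) was at chr2:152576086-152580312 on the minus strand and Defb36 (ENSMUSG00000044863) at chr2:152604327-152612729 on the plus strand. The 3 cystatin genes were on the plus strand: Cstl1 (ENSMUSG00000055177) at chr2:148750358-148755433, Cst12 (ENSMUSG00000027443) at chr2:148789361-148793546 and Cst9 (ENSMUSG00000027445) at chr2:148835147-148838738. Defb33 (ENSMUSG00000074454) was at chr8:20892669-20897723 on the plus strand. Only Defb36 overlapped another annotated gene, Gm14163, and they shared no exon. No transcript of another gene matched any of the 6 over at least 50 bp at 90% identity or more.

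The 3 cystatins sit in a stretch of 125.3 kb and fell on both sides of the description below, so the 250 bases before their RefSeq starts (GRCm38.p6, plus strand) are shown for comparison, Cst12 and Cst9 first (with Sertoli RNA) and Cstl1 last (with spermatid stages). Capitals mark the single match found among the motifs searched.
Cst12, chr2:148789115-148789364: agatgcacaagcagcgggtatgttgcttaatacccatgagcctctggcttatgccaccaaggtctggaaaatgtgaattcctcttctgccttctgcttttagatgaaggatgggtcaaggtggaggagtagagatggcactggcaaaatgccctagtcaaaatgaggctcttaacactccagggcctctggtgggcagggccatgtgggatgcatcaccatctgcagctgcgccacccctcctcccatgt
Cst9, chr2:148834897-148835146: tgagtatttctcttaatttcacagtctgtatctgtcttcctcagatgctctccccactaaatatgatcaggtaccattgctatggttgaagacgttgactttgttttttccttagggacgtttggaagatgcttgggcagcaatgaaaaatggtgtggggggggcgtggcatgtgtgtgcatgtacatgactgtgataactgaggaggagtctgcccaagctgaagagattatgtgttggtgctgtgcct
Cstl1, chr2:148750111-148750360: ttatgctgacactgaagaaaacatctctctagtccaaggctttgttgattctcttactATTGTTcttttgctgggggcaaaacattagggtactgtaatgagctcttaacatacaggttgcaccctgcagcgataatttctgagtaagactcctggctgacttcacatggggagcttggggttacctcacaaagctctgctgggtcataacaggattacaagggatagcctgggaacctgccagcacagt

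RefSeq windows were found for 5 of the 6 genes, all but Defb19. Both strands of those windows were searched for 6 short motifs. The TATA box was taken as TATAAA, which occurred in 12.4% of 32851 windows of the same length. The cyclic AMP response element was taken as TGACGTCA (1.5% of windows) and in its shorter form, the first 5 letters of that motif (17.8%), so these overlap. Motifs of SOX proteins were taken as AACAAT (9.4% of windows). For NR5A receptors the letters were AAGGTCA (4.1% of windows). For GATA factors the search used AGATAA (10.0% of windows). The single match in the 5 windows was AACAAT, read as ATTGTT 192 bases before the Cstl1 start. The windows held 1 to 5 CpG dinucleotides (5 for Defb36, 3 for Cst9, 2 for Cst12, 2 for Defb33 and 1 for Cstl1) against a median of 6 over all windows.

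The libraries held 1418 (control), 1732 (hairpin 1) and 1873 (hairpin 2) cells with 38330044 to 44640351 UMIs each, and 11 to 13 barcodes of a library also occurred in another. Levels are UMIs per 1000000 UMIs (CPM) of the cells named; each UMI is a 3' tag of 1 molecule, so levels of different genes need no length correction. Gm4665 itself had 311, 52.8 and 79.1 CPM (control, hairpin 1, hairpin 2), lower in both knockdown libraries as labelled. Clustering without the 6 genes gave 20 clusters, grouped by markers into classes, where a name means cells like that type. A cluster of 267 cells carried Sertoli markers (19 of 20 list genes at least 1.5-fold above all other cells, and 561 against 44.0 CPM for the list), mesenchymal markers (111 against 12.9 CPM) and a median of 22.1% of UMIs in protamine and transition protein genes. It was given no cell type name and is called the mixed cluster. Leukocytes (290 cells, 19 of them in the control) serve as the cells that should lack the 6 genes. Ranges in brackets are exact 95% intervals, by Poisson for levels and by Clopper-Pearson for shares of cells, and reflect counting error alone.

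Defb19, Defb36, Cst9 and Cst12 were highest in the mixed cluster and far lower in every germ cell class. Cstl1 was highest in elongating and condensing spermatids. Defb33 reached a level in the mixed cluster (645 CPM, interval 623 to 667) near that in elongating spermatids (604.5, 597 to 612). The plot of levels by class and library shows both patterns.

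**Figure D1:**
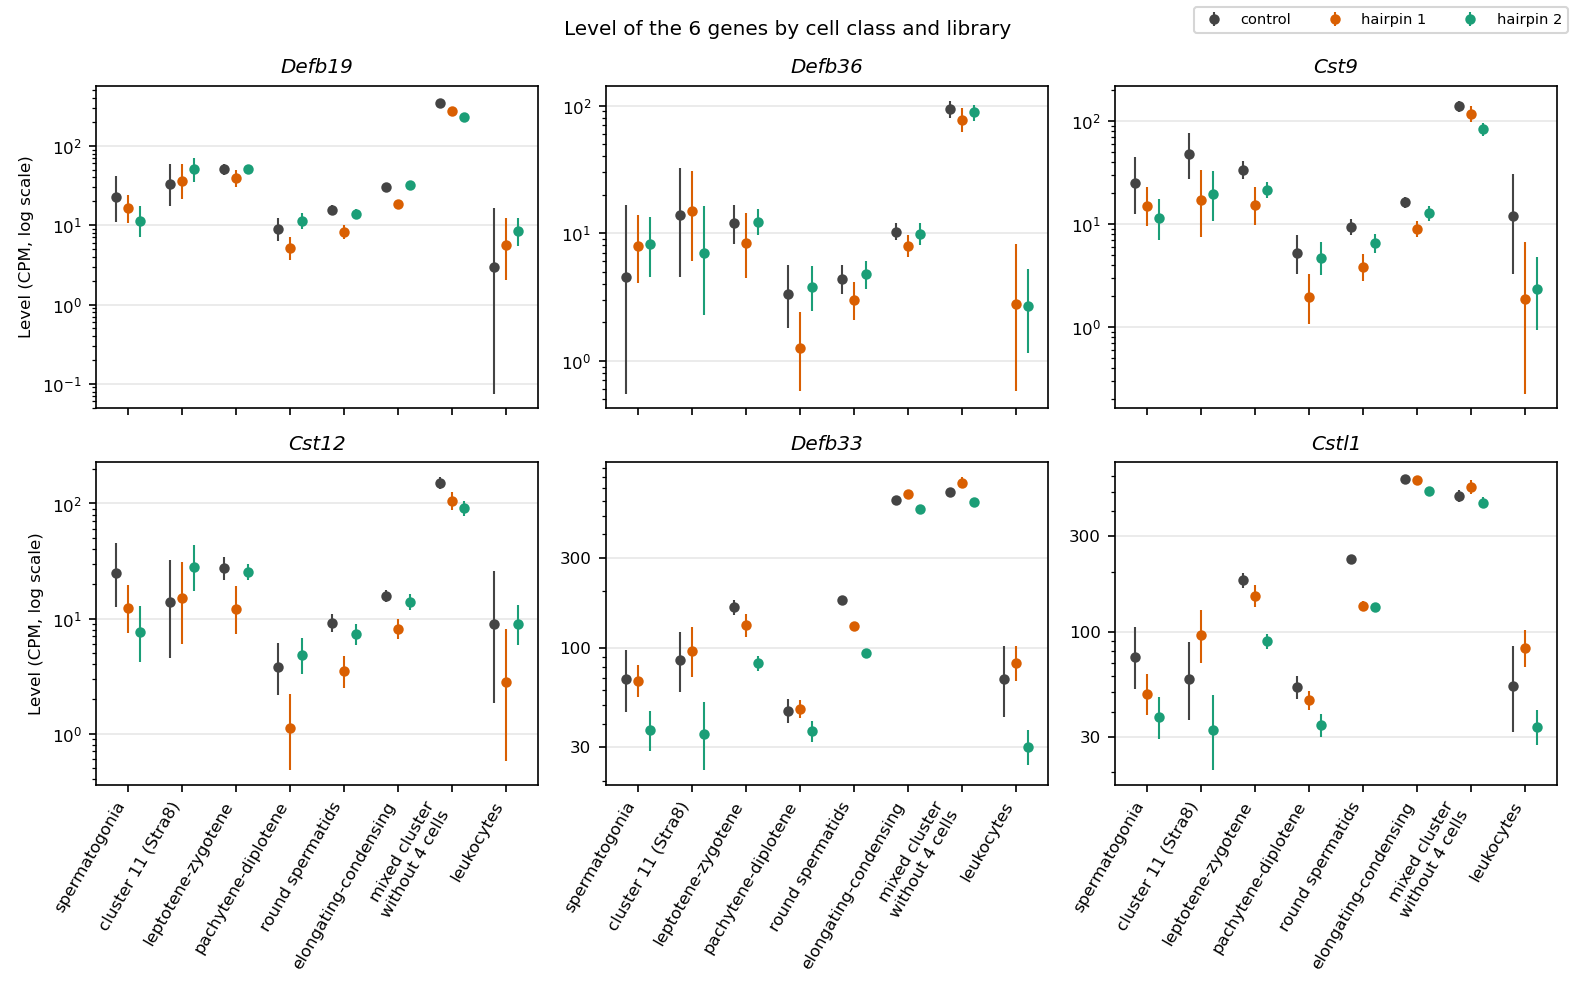
Level (CPM, log scale) of each gene in 8 cell classes, 1 point per library (control, hairpin 1, hairpin 2) with its 95% Poisson interval; Defb36 had 0 UMIs in the control leukocytes and has no point there. The mixed cluster is drawn without its 4 cells richest in Sertoli RNA; Defb19, Defb36, Cst9 and Cst12 still peak there, Cstl1 is highest in elongating and condensing spermatids in each library, and Defb33 is higher in the mixed cluster than in those spermatids (668 against 604 CPM in the control).

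Defb19, a beta-defensin, had 4971 UMIs in all. Its level was 490.5 CPM (472 to 510) in the mixed cluster, 48.9 in leptotene to zygotene spermatocytes, 42.4 in cluster 11 (cells led by Stra8 and Rhox13, left unnamed), 27.1 in elongating and condensing spermatids, 14.7 in spermatogonia, 12.7 in round spermatids, 8.39 in pachytene to diplotene spermatocytes and 7.27 (4.97 to 10.3) in leukocytes. The neighbours leptotene to zygotene and cluster 11 overlapped in their intervals, as did spermatogonia and round spermatids, and pachytene to diplotene and leukocytes. With every cell thinned to 10000 UMIs, a UMI of Defb19 was seen in 80.7% (75.0 to 85.6) of mixed cluster cells, against 6.97% (3.86 to 11.4) of leukocytes; unthinned, the shares were 91.4% and 9.31%, at median depths of 16758 and 11638 UMIs. Pachytene to diplotene cells, at 7.32% after thinning, did not exceed the leukocyte share beyond its interval and are read as background.

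Defb36, the defensin gene 24.0 kb from Defb19, was the lowest of the 4, with 1433 UMIs. Its level was 127 CPM (118 to 137) in the mixed cluster, 11.6 in leptotene to zygotene spermatocytes, 11.1 in cluster 11, 9.41 in elongating spermatids, 7.63 in spermatogonia, 4.09 in round spermatids, 2.67 in pachytene to diplotene spermatocytes and 2.50 in leukocytes. The first 4 germ values overlapped in their intervals. After thinning, 51.9% (45.3 to 58.5) of mixed cluster cells and 2.49% of leukocytes had a UMI.

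Cst9 (testatin) and Cst12 ran side by side. Cst9 was at 227 CPM (214 to 241) in the mixed cluster and Cst12 at 203 (191 to 216). In leptotene to zygotene spermatocytes Cst9 stood at 23.9 and Cst12 at 24.1, and in elongating spermatids at 13.0 and 12.8. Round spermatids held 6.67 CPM of Cst9 and 6.75 of Cst12, and pachytene to diplotene spermatocytes 3.72 and 3.11. In these 4 germ classes the intervals of both genes overlapped. Among the classes they parted in leukocytes, with 2.95 CPM (1.57 to 5.05) of Cst9 and 7.49 (5.16 to 10.52) of Cst12, on 13 and 33 UMIs. They also parted, the other way, in the 4 cells of the mixed cluster described next. Those cells had 7036 CPM (6490 to 7616) of Cst9 and 5358 (4882 to 5867) of Cst12.

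A few cells held much of this RNA. Only 4 of the 5023 cells had at least 100 UMIs of the Sertoli list, in which none of the 6 genes is a member; they had 491, 472, 167 and 164, and the next cell had 49. This grouping was chosen after the values were seen. Of the 4, 3 came from the control, 1 from hairpin 2 and 0 from hairpin 1. All lay in the mixed cluster. Whether they are doublets was not tested, since the doublet caller is taken not to have worked on these cells. Their protamine and transition protein share was 2.46%, 2.52%, 4.88% and 9.13%, below the 22.1% median of that cluster, and none had a UMI of the mesenchymal list.

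In these 4 cells Defb19 had 461, 382, 237 and 27 UMIs, or 14000, 14390, 14480 and 2429 CPM. Cst9 had 179, 253, 143 and 37 UMIs, Cst12 had 158, 183, 89 and 36, and Defb36 had 91, 82, 35 and 4. The 4 genes together made up 2.70%, 3.39%, 3.08% and 0.936% of all UMIs of the cells. Defb33 had 3, 1, 1 and 5 UMIs there and Cstl1 had 3, 1, 3 and 2. The first 3 cells were thus alike in the level of Defb19, and the fourth was lower for all 4 genes and held the most Defb33.

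Defining Sertoli markers were uneven in the same cells. Wt1, a transcription factor of Sertoli cells, had 10, 11, 1 and 2 UMIs, and Sox9, the factor that directs Sertoli fate, had 7, 5, 1 and 0. Amh (anti-Müllerian hormone) had 6, 0, 0 and 0, and Fshr (the follicle-stimulating hormone receptor) was at 0 in all 4. In the other 263 cells of the mixed cluster Sox9, Amh and Fshr were all at 0, while Wt1 had 9, 2 and 8 UMIs (control, hairpin 1, hairpin 2). The 4 cells held 1294 UMIs of the whole list and those 263 cells 1618. The highest list genes over the mixed cluster were Aard (129 CPM), Ctsl (124), Clu (106), Amhr2 (47.8) and Inha (36.6). Ctsl was also at 104.5 CPM in spermatogonia and 115 in cluster 11, so list counts in those classes rest partly on it.

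The 4 cells held 1107 of the 4971 Defb19 UMIs, 612 of 2397 for Cst9, 466 of 2260 for Cst12 and 212 of 1433 for Defb36. The remaining 263 cells of the mixed cluster still had 282 CPM (268 to 297) of Defb19, 87.8 of Defb36, 111 of Cst9 and 115 of Cst12, so the order of the classes was the same without them. Defb33 in the cluster was 654 CPM without the 4 cells and 115 in them; Cstl1 was 473 and 104. The 6 cells with at least 30 UMIs of the mesenchymal list were also all in the mixed cluster. They had 10 UMIs of Defb19 (141 CPM), 4 of Defb36, 2 of Cst9 and 2 of Cst12 among 70876. This Defb19 level lay above every germ cell class and below the 282 CPM of the remaining 263 cells.

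The 4 genes were detected more often in cells with more UMIs of the Sertoli list. Among thinned cells with 0, 1, 2 to 4 and 5 or more UMIs of the list (2798, 748, 399 and 146 cells), a UMI of Defb19 was present in 11.7%, 25.5%, 45.6% and 77.4%. Defb36 went from 4.43% in the first group to 52.7% in the last, Cst9 from 7.18% to 70.5% and Cst12 from 6.76% to 69.9%. Defb33 stood at 70.3%, 69.2%, 65.9% and 74.0% and Cstl1 at 65.9%, 67.5%, 65.4% and 67.8%, with no such slope.

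Leaving out the whole mixed cluster kept the slope of Defb19, at 11.1%, 22.5%, 35.2% and 64.6% (79 cells in the last group), while Defb33 went from 70.0% to 58.2%. It was also seen in each library: from 14.97% to 76.8% in control cells, from 7.91% to 75.0% in hairpin 1 cells and from 12.3% to 79.3% in hairpin 2 cells. By UMIs of the mesenchymal list in place of the Sertoli list, Defb19 was present in 20.01%, 18.3% and 23.1% of cells with 0, 1 and 2 to 4 UMIs, and in 16.7% of the 6 cells with 5 or more. These are ranges of a count in a cell and not cell types, and what share of the UMIs came from RNA outside the cell was not tested.

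**Figure D2:**
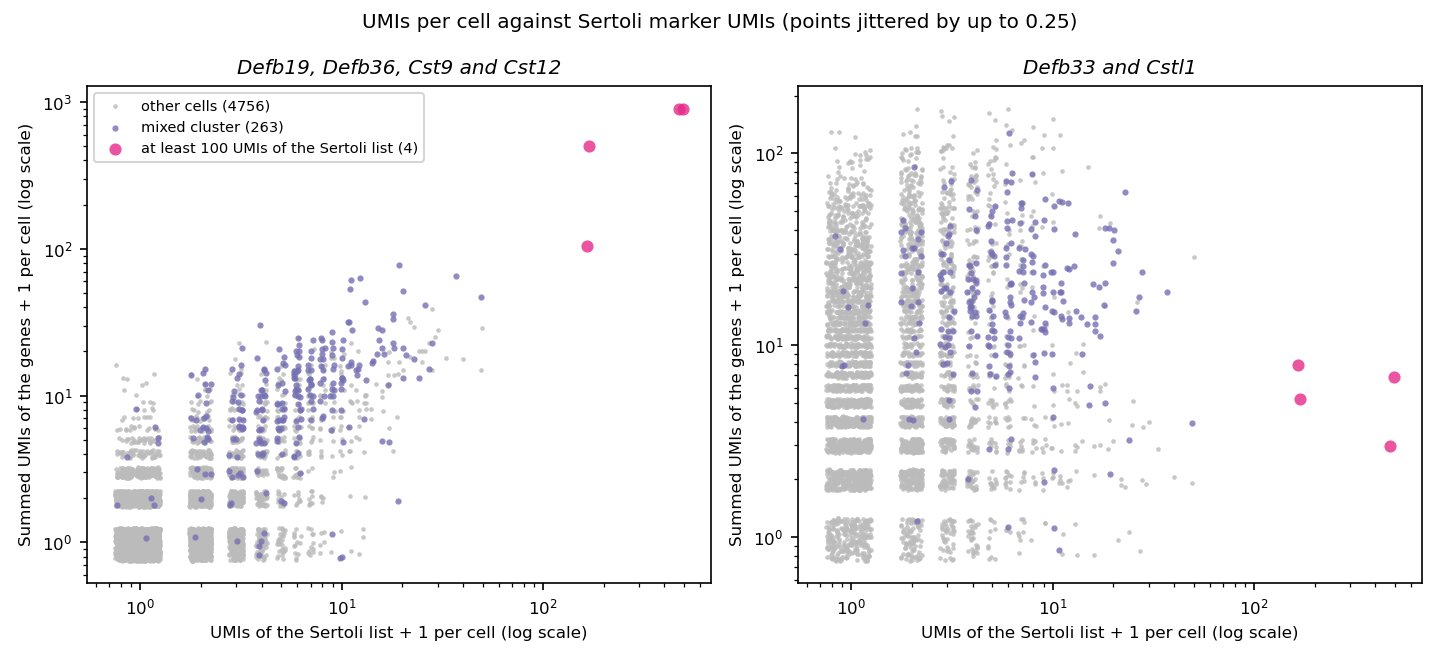
UMIs per cell in 5023 cells (both axes log scale after adding 1, points jittered): the summed Defb19, Defb36, Cst9 and Cst12 (left) and the summed Defb33 and Cstl1 (right) against UMIs of the 20-gene Sertoli list. The 4 cells with 164 or more list UMIs are at the top right on the left and near the bottom on the right.

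The proportions among the 4 genes were compared between classes that differed widely in level. Cst9 per Defb19 UMI was 0.55 (0.50 to 0.61) in the 4 cells, 0.39 (0.36 to 0.43) in the rest of the mixed cluster, 0.49 in leptotene to zygotene spermatocytes, 0.53 in round and 0.48 in elongating spermatids. Cst12 per Defb19 was 0.42, 0.41, 0.49, 0.53 and 0.47 in the same order. Defb36 per Defb19 was 0.19 (0.16 to 0.22) in the 4 cells and 0.35 (0.31 to 0.39) in elongating spermatids, and these intervals did not overlap, nor did those of Cst9 per Defb19 in the 4 cells and the rest of the cluster. The summed 4 genes per Sertoli list UMI were 1.85, 1.88 and 1.93 in the 4 cells, the rest of the mixed cluster and elongating spermatids, 1.35 in round spermatids, 0.96 in pachytene to diplotene and 0.73 in leptotene to zygotene spermatocytes, 0.54 in cluster 11, 0.43 in leukocytes and 0.29 in spermatogonia. In spermatogonia Cst9 per Defb19 was 0.98 (0.66 to 1.45), so neither proportion was the same in all classes.

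Over 53 groups of cells (cluster by library, at least 20 cells each), the genes outside the 6 most like Defb19 in log2 level were Aard (Pearson r = 0.87), Clu, which encodes the secreted chaperone clusterin (0.81), and Ypel5 (0.64). The same 3 genes came first for Defb36 (0.79, 0.75 and 0.61) and Cst9 (0.86, 0.79 and 0.69). For Cst12 they were Aard (0.88), Clu (0.84) and Fxyd2, a subunit of the sodium pump (0.63). Aard and Clu are on the Sertoli list. Genes needed a mean of at least 10 CPM over the libraries, and both reached it only with the 4 cells rich in Sertoli RNA. Without those cells Aard was at 12.3, 6.44 and 10.33 CPM and Clu at 11.97, 6.99 and 9.86 (control, hairpin 1, hairpin 2). Their r with Defb19 was then 0.85 and 0.78. Among themselves the 4 genes gave 0.81 to 0.93, and with Defb33 and Cstl1 0.43 to 0.53. The groups share libraries, depth and clusters, and no test was made.

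Defb33, a beta-defensin, had 36055 UMIs, of which 69.5% lay in elongating and condensing spermatids. Its level was 604.5 CPM there, 135 (131 to 138) in round spermatids, 113 in leptotene to zygotene spermatocytes, 65.8 in cluster 11, 52.9 in spermatogonia, 46.1 in leukocytes and 43.4 in pachytene to diplotene spermatocytes. Cstl1, cystatin-like 1, had 34490 UMIs with 66.8% in elongating spermatids, at 556 CPM (549.1 to 563.5) there, 168 (164 to 172) in round spermatids, 124 in leptotene to zygotene spermatocytes, 58.0 in cluster 11, 47.2 in leukocytes, 46.6 in spermatogonia and 43.2 in pachytene to diplotene spermatocytes. For both genes the intervals of spermatogonia, leukocytes and pachytene to diplotene cells overlapped, for Defb33 only at the edge between spermatogonia (45.8 to 60.7) and pachytene to diplotene cells (40.4 to 46.5).

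After thinning, 97.7% (96.8 to 98.3) of elongating spermatids had a UMI of Defb33 and 91.2% (89.6 to 92.6) one of Cstl1. In leukocytes both shares were 27.4% (21.3 to 34.1), and unthinned they were 40.7% and 46.2%; the median depths were 18244 and 11638 UMIs. A thinned share near 27.4% is thus taken as the background of these 2 genes with the libraries pooled. The leukocytes numbered 19, 92 and 179 (control, hairpin 1, hairpin 2), and their Cstl1 level differed between libraries, as given below. The pooled share is not far below the pachytene to diplotene shares, 38.8% (34.3 to 43.5) for Defb33 and 36.8% (32.3 to 41.4) for Cstl1, the latter overlapping it. Round spermatids, at 60.8% and 60.4%, were above the pooled share.

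Along the share of UMIs in protamine and transition protein genes, the 2 genes were highest in different groups of germ cells. Over clusters of elongating spermatids, given below, both were highest in the same one. Germ cells, here all classes but the mixed cluster and leukocytes, were ordered by their share of UMIs in Prm1, Prm2, Tnp1 and Tnp2. They were cut into 10 equal groups. This ordering uses neither clusters nor the 6 genes, but the choice of cells does use clusters. The mixed cluster, left out here, had a median share of 22.1%, Defb19 at 490.5 CPM and the Sertoli list at 561 CPM. Cstl1 rose from 31.7 CPM in the first group to 360 in the sixth (6.42% to 11.6% of UMIs). It reached 596.5 (582 to 611) in the eighth (16.6% to 19.8%), then stood at 534 and 527 (514 to 540) in the last 2. Defb33 rose from 33.0 to 277 in the sixth group, 558 in the eighth, 653 in the ninth and 752 (736 to 768) in the tenth. Cstl1 was the higher of both from the fifth to the eighth group and Defb33 in the last 2. Defb19 stood between 6.67 and 32.7 CPM over all 10 groups and was highest in the fourth (2.41% to 3.44%), where the Sertoli list also peaked, at 86.7 CPM. The lowest groups do not order stages. The median share was 1.67% in spermatogonia, 2.06% in leptotene to zygotene spermatocytes, 1.66% in pachytene to diplotene spermatocytes and 1.73% in leukocytes.

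**Figure D3:**
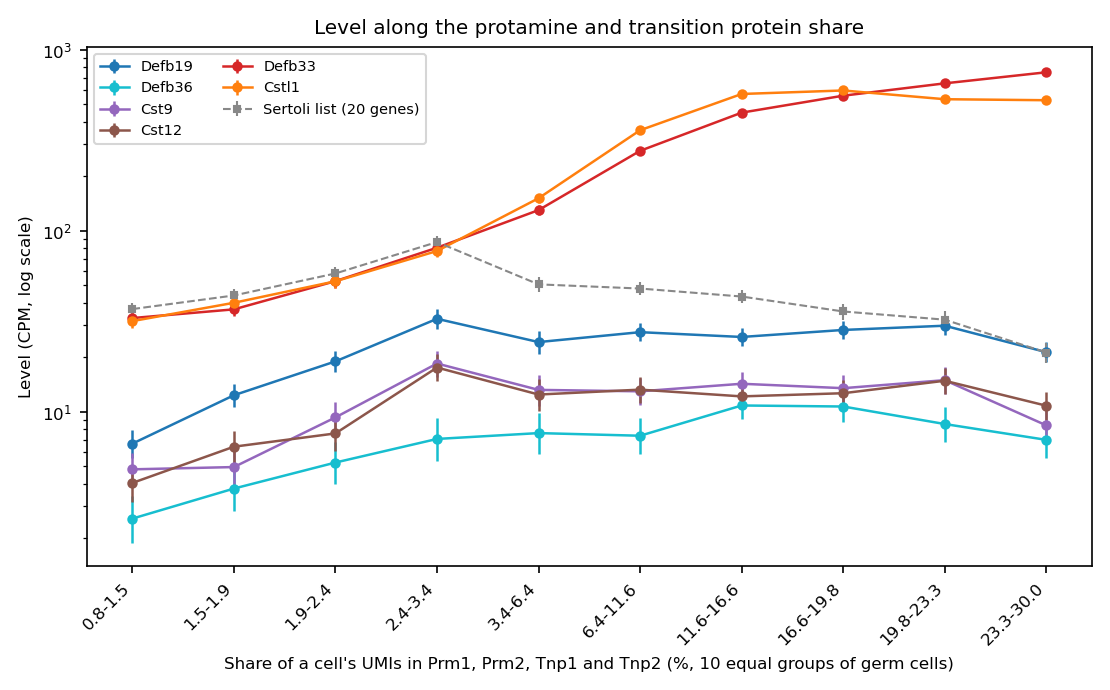
Level (CPM, log scale) of the 6 genes and of the Sertoli list in 10 equal groups of germ cells. The cells are ordered by the share of UMIs in 2 protamine and 2 transition protein genes, and bars are 95% Poisson intervals. The mixed cluster and leukocytes are left out. Cstl1 flattens at 596.5 CPM in the eighth group while Defb33 goes on to 752 in the tenth, and the other 4 genes stay below 33 CPM.

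Over the clusters of elongating spermatids both genes were highest in cluster 0, and the proportion between them differed from cluster to cluster. Cstl1 was highest in cluster 0 (797 CPM, led by Tnp2 and Tex37 among others) and cluster 12 (770), and lower in cluster 6 (479), cluster 1 (399) and cluster 10 (202, 191 to 213), the cluster with the highest Prm2 (93370 CPM) and lowest Tnp1 (15620 CPM) of the 5. Defb33 was 710 CPM in cluster 0, 641 in cluster 1, 563 in cluster 10, 545 in cluster 6 and 543 in cluster 12, where clusters 10, 6 and 12 overlapped in their intervals. The ratio of Defb33 to Cstl1 UMIs was 0.71 (0.68 to 0.73) in cluster 12, 0.89 in cluster 0, 1.14 in cluster 6, 1.61 in cluster 1 and 2.79 (2.62 to 2.97) in cluster 10. Among the 5 clusters of round spermatids, cluster 5 (257 CPM of Defb33 and 356 of Cstl1) and cluster 2 (241 and 322) were highest, and cluster 3 (54.4 and 55.7) and cluster 9 (49.9 and 44.99) were near the leukocyte level. In cluster 0, where Cstl1 was highest, Tnp2 stood at 34330 CPM and Gm4665 at 405 CPM.

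By the likeness over the same 53 groups, Defb33 was nearest to H2afb1 (r = 0.986), a histone H2A variant, Prm1 (0.983), a protamine, and Paqr5 (0.983), a membrane progestin receptor. Cstl1 was nearest to Tex37 (0.981), Tnp2 (0.979), a transition protein, and Tfam (0.974), a mitochondrial transcription factor. The correlation between Defb33 and Cstl1 was 0.956.

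Along chromosome 2, genes of both patterns lay close together without strict alternation. Genes of like pattern were also neighbours, such as Cst8 and Cst13, or Defb19, Defb45 and Defb36. The cystatin stretch held 9 protein-coding genes, all in the table, from Cstl1 to Cst3. Cst12 (5358 CPM in the 4 Sertoli-rich cells, 12.8 in elongating spermatids) lay 5.2 kb before Cst8 (264 and 1160 CPM). Cst13 (230 and 564.1 CPM) lay 4.7 kb before Cst9 (7036 and 13.0 CPM). Between Cstl1 and Cst12, 8030411F24Rik had 920 CPM (729 to 1145) in the 4 cells, on 80 UMIs, and 24.9 in the rest of the mixed cluster, against 0.931 in round spermatids. This gene is named for its position and was noticed after the values were seen. Cst11 had 4 UMIs in all. After Cst9, 9230104L09Rik had 186 UMIs, with 3.465 CPM in round spermatids and 1 UMI in the 4 cells. Cst3 (cystatin C, a broadly secreted inhibitor) was highest in leukocytes at 1591 CPM and had 954 in the 4 cells.

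The shorter defensin stretch of 40.0 kb held 4 genes. Defb21 had 0 UMIs in the 4 cells, which allows up to 42.4 CPM by its interval, and 14.1 CPM in elongating spermatids, and it lay 1.1 kb from Defb19 (12730 and 27.1 CPM). Defb45, between Defb19 and Defb36, had 98 UMIs (1127 CPM, 915 to 1373) in the 4 cells and 16.5 CPM in the rest of the mixed cluster, against 2.85 in elongating spermatids and 0.908 in leukocytes. Its 441 UMIs were too few to pass the filter on low levels used for folds (a mean of 10 CPM and 30 UMIs).

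**Figure D4:**
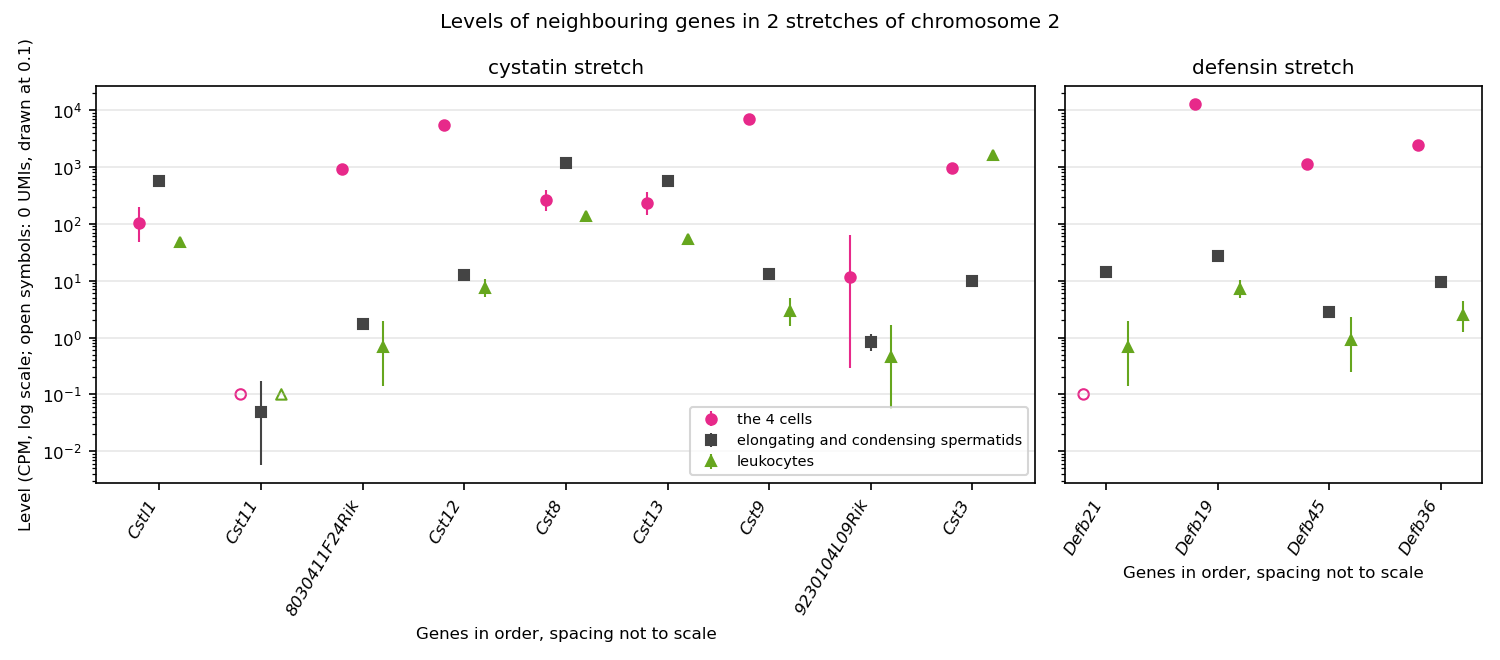
Level (CPM, log scale, 95% Poisson intervals) in the 4 Sertoli-rich cells, elongating and condensing spermatids and leukocytes of the 9 genes of the cystatin stretch and the 4 of the defensin stretch, in order along chromosome 2; open symbols are 0 UMIs. Cst12 and Cst9 (5358 and 7036 CPM in the 4 cells) stand on either side of Cst8 and Cst13, which are higher in spermatids (1160 and 564.1 CPM).

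Over the whole families, 13 of 25 beta-defensin genes in the table had at least 30 UMIs. Of these, 5 were highest in the mixed cluster (Defb19, Defb36, Defb45, Defb33 and Defb11), 5 in a spermatid class, 0 in leukocytes and 3 elsewhere. Defb11 had 0 UMIs in the 4 cells, and 2.89 CPM in the mixed cluster against 2.51 in elongating spermatids. The class of genes near 30 UMIs, such as Defb22 with 31, rests on few counts. The shares of all genes highest in each class are not given here, so these family counts are a description. Defb30 (66.3 CPM) and Defb14 (40.9 CPM) were highest in round spermatids and fell to 31.9 and 5.89 CPM in elongating ones, earlier than Defb33. Of 19 cystatin-family genes 12 had at least 30 UMIs: 3 were highest in the mixed cluster (Cst9, Cst12 and BC100530, at 6.36 CPM but with 0 UMIs in the 4 cells), 5 in a spermatid class and 4 in leukocytes, among them Cstb at 340 CPM. Among 13 cathepsin and legumain genes, the proteases of the class that cystatins act on and a few others, 8 of the 12 with at least 30 UMIs were highest in leukocytes. Ctsl, which encodes a cysteine protease secreted by Sertoli cells, was the 1 that was highest in the mixed cluster, with 3645 CPM in the 4 cells. Without those cells it was at 64.5 CPM there, below cluster 11 (115.3), spermatogonia (104.5) and leptotene to zygotene spermatocytes (70.1). Ctsl is itself on the Sertoli list. Of the 6 genes for defensin receptors and processing, Pcsk4, a convertase of spermatids, was at 73.8 CPM in round spermatids.

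All 6 genes were lower with both hairpins than in the control when all cells of a library were summed. In such a sum, fewer cells with the RNA and less RNA per cell cannot be told apart. The share of all genes that were lower with both by any amount is not given here. Whether 6 of 6 is unusual can therefore not be told from that count. None of the 6 was 2-fold lower with both (background 0.495% of 7068 genes) or 2-fold higher with both (1.23%). The median log2 difference of all genes was 0.23 with hairpin 1 and 0.25 with hairpin 2, against -1.25 and -0.73 for the 6 genes. All folds are on the scale of log2(CPM + 1). With median-of-ratios size factors in place of totals, the medians of all genes became -0.04 and -0.14. Then 3 of the 6 (Defb19, Cst9 and Cst12) were 2-fold lower with both, where 2.91% of genes were, and 0.424% were higher.

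The control, hairpin 1 and hairpin 2 levels of Defb19 were 60.2 (57.8 to 62.6), 21.3 (19.8 to 22.8) and 38.6 (36.8 to 40.5) CPM, log2 differences of -1.46 and -0.63. Cst9 was at 31.6, 9.76 and 16.8 CPM (-1.60 and -0.87). Cst12 was at 28.6, 8.56 and 17.4 CPM (-1.63 and -0.68). Defb36 was at 15.8, 7.18 and 11.7 CPM (-1.04 and -0.40). With hairpin 1 these 4 of the 6 were at least 2-fold lower, where 1.47% of all genes were, and with hairpin 2 none was, where 2.19% of genes were. The order control, hairpin 2, hairpin 1 was that of the Sertoli list, at 87.7, 65.8 and 42.6 CPM, and of the number of Sertoli-rich cells, at 3, 1 and 0.

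Without the 4 cells the differences shrank to -0.83 and -0.21 for Defb19, -0.96 and -0.53 for Cst9, -1.08 and -0.30 for Cst12, and -0.60 and -0.06 for Defb36. Of the 6, Cst12 was then 2-fold lower with hairpin 1 (background 1.42%) and 0 with both (background 0.51%). Defb36 fell below the filter, and its interval with hairpin 2 (-0.25 to 0.12) included 0. The Sertoli list was then at 59.95, 62.1 and 42.6 CPM (control, hairpin 2, hairpin 1), so the control and hairpin 2 libraries no longer differed beyond their intervals. Within elongating spermatids the hairpin 1 library was still the lowest for Defb19 (30.6, 18.6 and 32.0 CPM in control, hairpin 1 and hairpin 2), and the hairpin 2 value was not below the control. The other 3 genes were lower with both hairpins there, Cst9 by log2 differences of -0.78 and -0.32 (hairpin 2 interval -0.65 to -0.05), Cst12 by -0.87 and -0.16 (-0.47 to 0.12) and Defb36 by -0.34 and -0.06 (-0.42 to 0.29).

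**Figure D5:**
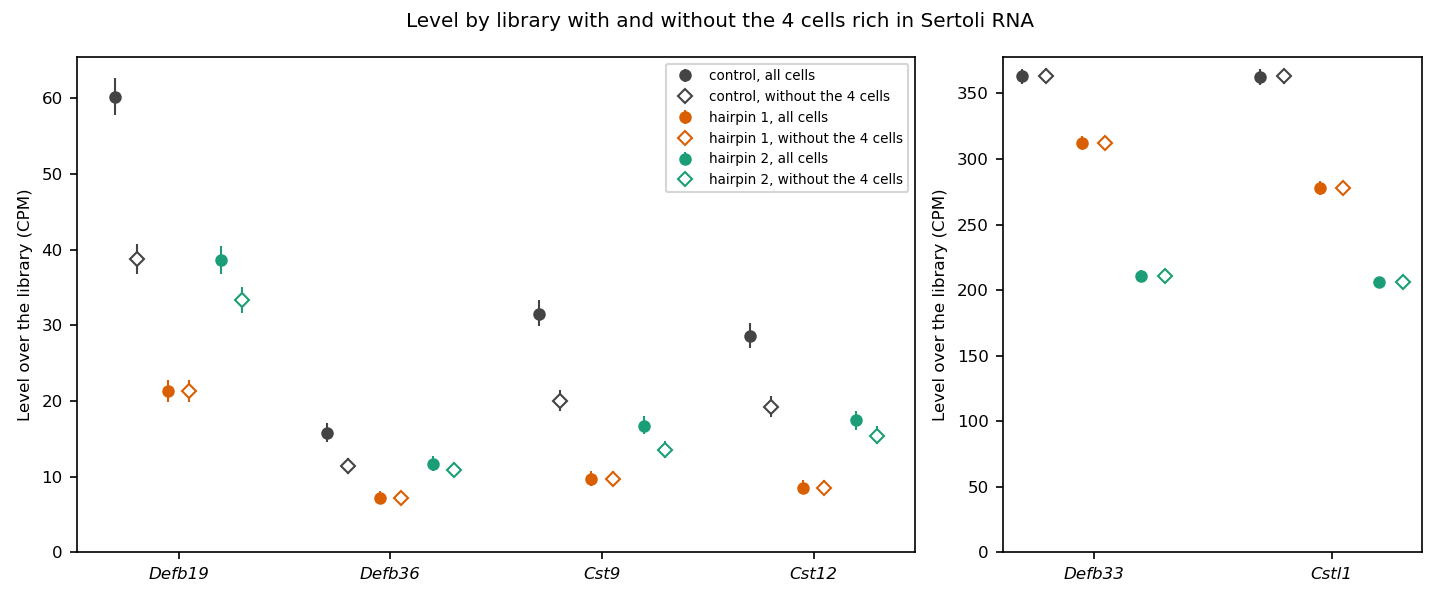
Level of each gene over all cells of a library (CPM, axes from 0; left, the 4 genes found with Sertoli RNA; right, Defb33 and Cstl1), with filled circles for all cells and open diamonds without the 4 Sertoli-rich cells, and 95% Poisson intervals. Defb19 in the control drops from 60.2 to 38.7 CPM without 3 of its cells, while Cstl1 goes from 362.5 to 363 CPM.

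In the mixed cluster, 3 of the 6 (Defb19, Cst9 and Cst12) were at least 2-fold lower with both hairpins, where 1.37% of 5022 genes were. Defb19 stood at 792, 278 and 340 CPM (control, hairpin 1, hairpin 2). Without the 4 cells none of the 6 was (background 0.387%), and the Defb19 levels were 344 (318 to 372), 278 (248 to 310) and 231 (211 to 252). Leaving out the 3 control cells lowered the control level, and leaving out the hairpin 2 cell lowered the hairpin 2 level, so the call rested on the 3 control cells. The Sertoli list went the same way in the cluster, at 940, 367 and 331 CPM with the 4 cells and 357, 367 and 255 without them. The mesenchymal list went the opposite way, at 29.1, 98.8 and 190.5 CPM, and its part in these differences was not tested.

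The level of Defb33 over all cells was 363 CPM (357 to 369) for the control library, 312 (307 to 318) for hairpin 1 and 211 (207 to 215) for hairpin 2, log2 differences of -0.22 and -0.78. Cstl1 was at 362.5, 278 and 206 CPM (-0.38 and -0.81). Both moved with the share of elongating and condensing spermatids among the cells, at 45.6%, 37.6% and 26.3%. Within that class Defb33 was at 604, 654 and 545 CPM (0.12 and -0.15) and Cstl1 at 579, 571 and 503 CPM (-0.02 and -0.20). The hairpins lay on opposite sides of the control for Defb33, and none of the 6 was 2-fold lower with both (background 0.277%). Defb36 did not pass the filter in this class and could not be called.

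In round spermatids both genes were lower with both hairpins, but by less than 2-fold: Defb33 was at 179, 131 and 94.2 CPM (-0.45 and -0.92) and Cstl1 at 232, 135 and 134 CPM (-0.77 and -0.79). None of the 6 was called 2-fold lower with both there (background 0.715%), but Defb36, Cst9 and Cst12 did not pass the filter in this class and could not be called. The libraries differed in the clusters that made up this class. In cluster 2, with 178, 99 and 93 cells, the differences were 0.16 and -0.34 for Defb33 and 0.01 and -0.06 for Cstl1, with intervals of -0.10 to 0.13 and -0.16 to 0.04 for the latter. In cluster 3, with 115, 128 and 251 cells, Cstl1 differed by -0.80 and -0.96 and Defb33 by -0.15 and -0.77, at levels of 40.6 to 85.1 CPM. Cstl1 there was at 85.1 (75.8 to 95.2), 48.5 and 43.3 CPM, and in leukocytes of the same libraries at 53.7 (31.8 to 84.8, 19 cells), 83.2 and 33.7 CPM. In cluster 0, where Cstl1 was highest, it was at 767, 835 and 821 CPM (0.12 and 0.10), near the median of all genes in that cluster (0.15 and 0.14), and Defb33 was at 721, 745 and 602.5 CPM (0.05 and -0.26). How far the makeup of the libraries and a change within cells each account for the differences was not tested.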

How the data were processed

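Single-cell RNA-seq of 3 libraries was used, 1 per group. Per the submitters' processing notes, reads were processed with Cell Ranger 1.3.1 and Seurat 2.0.0 on mm10; for the annotation, the strand and the cell filter, these are not given in the sources read here. The deposited values are on a natural log scale: the authors took each gene's share of a cell's UMIs, multiplied it by 10000 and added 1 before the log. Undoing the log gave whole UMIs for 100.0% of 20140203 non-zero values within 0.01. Columns were matched to hairpins 1 and 2 by the last digit of their names; if that is wrong, the 2 hairpins change places.

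The members and lists were chosen with earlier results of these data known. No cell was removed. Scrublet, run in scanpy, marked 8, 7 and 2 cells as doublets, under 0.5% of all cells, so it is taken not to have worked, and doublets were otherwise not treated. Clusters came from scanpy 1.11.5 (2000 variable genes without the 6 members, 30 principal components, 15 neighbours, Leiden resolution 0.8, leidenalg 0.10.2, igraph 0.11.9) and were named from 15 marker lists, with at least 3 markers raised 1.5-fold. UMIs were summed over cells. Folds used a pseudocount of 1 CPM, a filter of 10 CPM and 30 UMIs, and at least 50 cells per class and library; called means at least 2-fold, with no test. Thinning to 10000 UMIs left out 70, 530 and 332 shallower cells (control, hairpin 1, hairpin 2). Named genes were the 6 members, the 3 most correlated genes of each, the 5 highest Sertoli list genes with 4 defining ones, family genes with at least 30 UMIs, stage references and Gm4665. Positions came from GENCODE vM21, near-identical transcripts from blastn 2.17.0, promoter windows from RefSeq (GRCm38.p6). Steps were tested on simulated data and run with Python 3.11.15, scipy 1.17.1, numpy 2.4.6, scikit-learn 1.9.0, pandas 2.3.3 and matplotlib 3.10.9.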

Additional observations from a re-analysis of the deposited data

How the results depend on the processing

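No paired analysis was possible because each group is 1 library. The count of members 2-fold lower with both hairpins was 0 under 9 of 10 alternatives and 3 (Defb19, Cst9 and Cst12) with median-of-ratios size factors, which also moved the median of all genes from 0.23 and 0.25 to -0.04 and -0.14 and the background from 0.495% to 2.91% lower and from 1.23% to 0.424% higher. The count 2-fold higher with both was 0 in all 10. The class with Sertoli markers was the highest for 5 members, for 4 after thinning, and for 0 at Leiden resolution 0.4, where no cluster was named by those markers and the same 5 genes were highest in a cluster named by mesenchymal markers; a spermatid class was the highest for 1 member (Cstl1) and, after thinning, for 2 (Defb33 too). Of 120 member folds under alternatives, 118 kept their sign. The exceptions were Defb19 with hairpin 2 without the non-germ cells (0.003) and Defb33 with hairpin 1 with classes weighted to the control's mix (0.03). Weighted in this way, Defb33 and Cstl1 with hairpin 2 were at -0.28 and -0.33. The alternative without the 4 Sertoli-rich cells was added after the data were seen. Leukocytes of the control (19 cells) and the classes with under 50 cells per library limit what can be compared there.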

Other observations

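Among the family genes with at least 30 UMIs, Defb11 and Defb15, beta-defensin genes at chr8:21905376-21906412 and chr8:21929799-21932710 (both on the minus strand), were the only ones whose hairpin libraries lay on opposite sides of the control by at least 0.5 on the log2 scale. Defb11 had 56, 9 and 161 UMIs in the control, hairpin 1 and hairpin 2 libraries, or 1.39 CPM (1.05 to 1.80), 0.235 (0.107 to 0.446) and 3.61 (3.07 to 4.21). Defb15 had 37, 6 and 91 UMIs, or 0.916, 0.157 and 2.04 CPM. Neither passed the filter on low levels. They were picked out after their values were seen. The share of all genes that met the same rule is not given here, so whether the pattern is unusual cannot be told. Whether reads of these genes are shared with related copies was not tested.

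In the cathepsins, Ctss and Ctsz, proteases most abundant in the leukocytes here (Ctsz at 339 CPM), were at least 2-fold higher with both hairpins over all cells, as 1.23% of genes were (log2 1.85 and 1.47 for Ctss, 1.19 and 1.86 for Ctsz). Leukocytes made up 1.34% of control, 5.31% of hairpin 1 and 9.56% of hairpin 2 cells. Whether these folds follow that share was not tested.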
